A study of Mus musculus with 7 samples.

Results

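Crabp1 progenitors are a group of fibroblast-like cells of mouse inguinal subcutaneous fat, chosen here by their counts of unique molecular identifiers (UMIs, each 1 captured transcript). A cell was a member when it held at least 2 UMIs of Crabp1 and at least 1 UMI of Pdgfra, the receptor that marks stromal cells of connective tissue. It also held at most 2 UMIs of Pi16 and no UMI of F3, Ptprc, Pecam1 or Epcam, genes that mark other progenitors, blood cells, endothelium and epithelium. The gate found 467 cells among 39566 kept cells and among 9402 Pdgfra-positive stromal cells free of Ptprc, Pecam1 and Epcam. The study profiled the stromal vascular fraction, the non-adipocyte cells of fat released by collagenase, by droplet-based RNA sequencing of single cells (10x Genomics, 3' chemistry v3). The groups were 3 libraries of old mice (18 months) and 4 libraries of young mice (11-12 weeks, given as 3 months in the series text). All mice were female, of the strain C57BL/6N, with no transgene, deletion or treatment named in the labels. How many mice went into a library is not in the labels, so p-values measure the spread between these libraries.

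Crabp1 encodes a cytosolic protein that binds retinoic acid, the vitamin A derivative that enters the nucleus and switches genes on through its own receptors. Stra6 takes up retinol from its carrier in blood, Hsd11b1 regenerates active glucocorticoid inside the cell, Nos1 makes nitric oxide, and Penk is the precursor of the enkephalin opioid peptides. Stromal cells of fat include progenitors able to become adipocytes and fibroblasts that lay down collagen, and Crabp1 is known as a mark of some dermal fibroblasts in mouse skin.

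The old libraries gave 60, 40 and 77 members, and the young libraries gave 40, 23, 30 and 197. Young replicate 4 alone held 197 of the 467 cells, and young replicate 2 the fewest. The median member held 7656.5, 8533 and 7522 UMIs in the old libraries, against 11496, 15827, 29221.5 and 13701 UMIs in the young libraries, so every old library was shallower than every young one. Summed member counts per library lay between 359476 and 3012327 UMIs. No cell barcode was shared between members of different libraries, and 4 members carried a doublet mark.

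The label was checked against its remaining markers Hsd11b1, Nos1, Stra6 and Penk, after thinning each cell to 5000 UMIs. Members with fewer UMIs were left out, which kept 58, 34 and 71 old and 35, 22, 30 and 195 young members. At least 2 of these 4 genes were detected in 84.5%, 82.4% and 84.5% of these old members and in 94.3%, 68.2%, 46.7% and 76.4% of these young members. Young replicate 3 stood apart: 33.3% of its members had none of the 4, against 1.41% to 6.15% in the other 6 libraries. Levels below are given as CPM, a gene's share of the summed UMIs of a library's members put on a common scale, here without further scaling. Penk read 714, 698 and 1070 CPM in old members and 622, 225, 342 and 388 CPM in young members. Its level in Crabp1-low cells, which pass the same gate but hold 0 or 1 Crabp1 UMI, was 121 to 283 CPM in the old libraries and 135 to 250 CPM in the young ones. Hsd11b1 read 493, 396 and 510 CPM in old members and 828, 545, 129 and 791 CPM in young members, where young replicate 3 is again the low one. Stra6 read 57.0 to 104 CPM in old members and 64.0 to 130 CPM in young members, against 2.16 to 6.77 CPM and 3.29 to 25.8 CPM in old and young Crabp1-low cells. Nos1 read 39.5 to 76.0 CPM in old members and 47.3 to 152 CPM in young members. Stra6 reached at most 25.8 CPM in Crabp1-low cells, 7.53 CPM in Pi16 progenitors and 26.1 CPM in F3 progenitors. Nos1 reached 32.4 CPM in Crabp1-low cells, 8.86 CPM in Pi16 progenitors and 36.8 CPM in F3 progenitors, close to its lowest member value. These markers came with the label and are given as a description. On mm10, Crabp1 lies at chr9:54764748-54773110 (plus strand) and Penk at chr4:4133531-4138819 (minus strand).

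**Figure D1:**
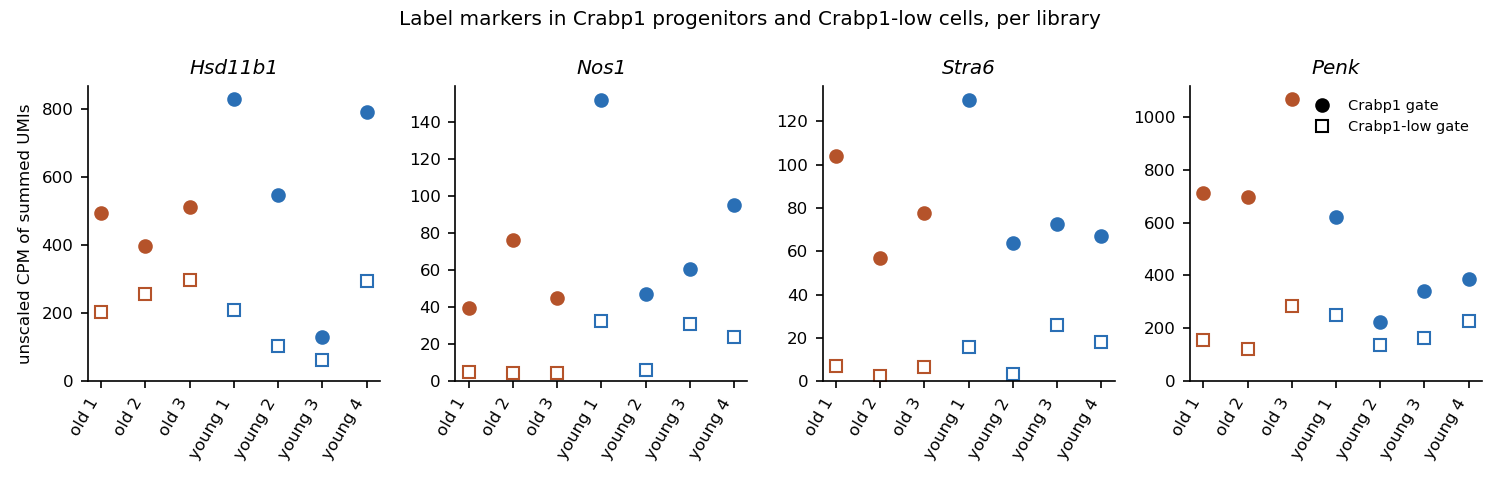
Unscaled CPM of the 4 label markers in each library, with filled circles for Crabp1 progenitors and open squares for Crabp1-low cells (old libraries orange, young libraries blue). Each marker is higher in the Crabp1 gate than in Crabp1-low cells of the same library, and Hsd11b1 is lowest in young replicate 3.

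The cut at 2 Crabp1 UMIs does not fall in a gap. Members with exactly 2 UMIs made up 32.5% to 40.0% of old and 26.9% to 47.8% of young members. Just inside the cut, Penk read 793, 682 and 1076 CPM in the old libraries and 688, 241, 272 and 334 CPM in the young libraries. Just outside it, cells with 1 Crabp1 UMI read 482, 472 and 941 CPM in the old libraries and 361, 216, 202 and 299 CPM in the young ones. Cells with no Crabp1 UMI read 94.1 to 226 CPM in the old libraries and 127 to 237 CPM in the young ones. For Penk, cells just outside the cut were nearer to cells just inside than to cells without Crabp1 in the old libraries and young replicates 2 and 4. In young replicates 1 and 3 they were nearer to cells without Crabp1. For Hsd11b1 they were nearer to cells without Crabp1 in old replicates 2 and 3 and in young replicates 2 and 4. Old replicate 2 read 402 CPM just inside, 311 CPM just outside and 250.3 CPM without Crabp1. In old replicate 3 these values were 419.5, 333.5 and 292.3 CPM. A further 265 cells met the Crabp1 cut but held more than 2 Pi16 UMIs or any F3 UMI, and were not counted as members.

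Members made up 4.01%, 4.02% and 7.53% of Pdgfra-positive stromal cells in the old libraries (95% exact Clopper-Pearson intervals 3.07% to 5.13%, 2.88% to 5.43% and 5.99% to 9.33%, counting error only). In the young libraries they made up 5.51%, 1.05%, 4.12% and 8.80%, with intervals of 3.97% to 7.43%, 0.666% to 1.57%, 2.79% to 5.82% and 7.65% to 10.04%. The old and young ranges overlap fully. The mean share was 5.19% ± 2.03 (SD, n = 3) in old and 4.87% ± 3.21 (SD, n = 4) in young libraries, a difference of 0.38 in log2 odds (2-sided exact permutation test over 35 splits, p = 0.83, with 0.0286 the smallest p the design allows). The direction rested on young replicate 2, without which the difference was -0.26, and it was -0.31 with all kept cells as the denominator. A change of share between the ages was not detectable here.

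Crabp1 progenitors were compared with the 3772 Crabp1-low cells of the same libraries to see what they carry beyond the gate. Counts were summed per library and gate and tested with edgeR's quasi-likelihood test with library as a block, leaving out the 7 gate genes and the label markers. Of 11708 genes, 13.4% passed at a Benjamini-Hochberg adjusted p under 0.05, with 702 (6%) higher and 866 (7.4%) lower in Crabp1 progenitors. The median member held fewer UMIs than the median Crabp1-low cell in all 3 old libraries and more in young replicates 1 and 3. CPM values from here on are scaled by edgeR's TMM factors.

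Pla2g7, which encodes an enzyme that inactivates platelet-activating factor, had the largest increase by the naming rule. It read 130, 149 and 236 CPM in old and 369, 135, 46.5 and 197 CPM in young Crabp1 progenitors, against 12.8, 15.0 and 18.7 CPM in old and 54.3, 20.1, 16.9 and 49.5 CPM in young Crabp1-low cells. It was higher in the Crabp1 gate in every library (log2 fold change 2.70, SE 0.20, edgeR adjusted p = 9.99e-08). Col13a1, a collagen that spans the cell membrane, averaged 138 ± 34.3 CPM against 33.1 ± 25.3 CPM (SD, n = 7 each; log2 fold change 2.19). Hmcn1 and Spon1, both secreted matrix proteins, averaged 307 and 247 CPM in Crabp1 progenitors against 105 and 74.4 CPM in Crabp1-low cells. Il34, a ligand of the macrophage growth factor receptor, averaged 56.5 CPM against 15.2 CPM, and P2ry14, a receptor for UDP-glucose, 61.7 CPM against 14.6 CPM. Ifitm1, Olfml2a, Nkd2 and Nes, the last an intermediate filament gene, complete the 10 largest increases, with log2 fold changes of 1.95, 1.95, 2.02 and 1.67.

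Among genes of at least 50 CPM in 1 gate that were lower in every library, C3 had the largest decrease. C3, the central complement protein, averaged 69.6 ± 69.0 CPM in Crabp1 progenitors against 750 ± 393 CPM in Crabp1-low cells (SD, n = 7 each; log2 fold change -3.49, SE 0.24, edgeR adjusted p = 6.49e-08) and was lower in all 7 libraries. Its unscaled level was 3419 CPM in Pi16 progenitors and 1299 CPM in F3 progenitors. Igfbp5 and Igfbp3, carriers of insulin-like growth factors, had log2 fold changes of -3.10 and -2.99. Sfrp4, a secreted Wnt antagonist, averaged 14.3 CPM against 120 CPM, Gpx3, an extracellular glutathione peroxidase, 66.9 CPM against 513 CPM, and Fzd4, a Wnt receptor, 8.44 CPM against 68.6 CPM. Ly6a, the stem cell antigen Sca-1, averaged 182 CPM in Crabp1 progenitors, 989 CPM in Crabp1-low cells and, unscaled, 2619 CPM in Pi16 progenitors. Ly6c1, Ccl7 and Ptx3 were the other 3 of the 10 largest decreases.

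**Figure D2:**
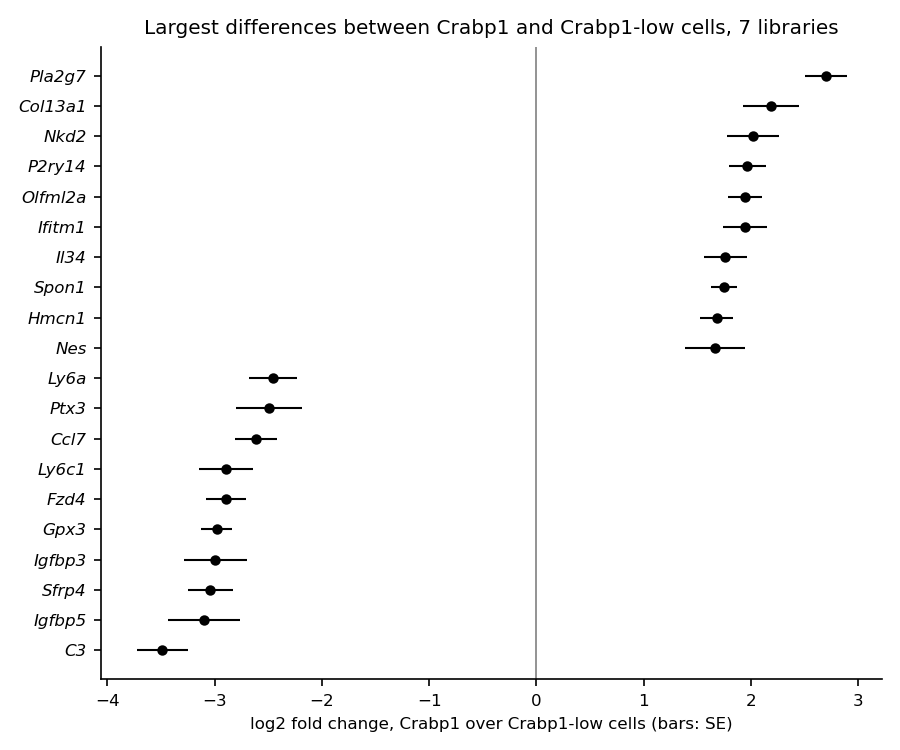
Log2 fold change with its SE for the 10 largest increases and 10 largest decreases of Crabp1 progenitors over Crabp1-low cells, from sums of 7 libraries. Points lie between 1.67 and 2.70 for the increases and between -2.46 and -3.49 for the decreases.

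Around the retinoid label, 5 of 16 tested genes of retinoid handling were higher and 2 lower in Crabp1 progenitors, with a median log2 fold change of 0.07 against -0.00304 over all genes tested. Aldh1a1, which makes retinoic acid from retinal, averaged 121 ± 75.7 CPM against 60.7 ± 32.7 CPM (SD, n = 7 each) and was higher in 7 of 7 libraries (edgeR adjusted p = 2.76e-05). Rarb, a retinoic acid receptor that is itself a retinoic acid target, averaged 12.9 CPM against 5.31 CPM. Rdh10, which makes retinal, and Dhrs3, which turns retinal back to retinol, were also higher, with log2 fold changes of 0.89 and 0.54. Cyp26b1, which breaks retinoic acid down, averaged 15.2 CPM against 51.1 CPM and was lower in 6 of the 7 libraries; young replicate 3 had 11.3 CPM in Crabp1 progenitors against 5.89 CPM in Crabp1-low cells. Retsat was the second gene lower (log2 fold change -0.71). Rdh10 and Retsat lie outside the naming rule and were named after their values were seen.

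Of the nitric oxide and cGMP genes besides the marker Nos1, Pde5a, the cGMP phosphodiesterase, and Ddah1, which removes an inhibitor of nitric oxide synthesis, were higher. Pde5a averaged 25.2 CPM against 10.7 CPM, and Ddah1 averaged 9.49 CPM against 4.48 CPM. Pde3a, Npr1 and Ddah2 were lower, so 2 of 8 tested genes were higher and 3 lower. Tac1, the precursor of substance P, averaged 78.8 ± 67.7 CPM against 33.3 ± 30.5 CPM (SD, n = 7 each) and was lower in the Crabp1 gate in 1 library, old replicate 2, at 5.12 against 7.58 CPM. In 2 libraries Tac1 was near the limit of detection in members: young replicate 1 read 1.79 CPM and old replicate 2 read 5.12 CPM. Cpe, the enzyme that trims peptide precursors such as proenkephalin, was lower at 8.37 CPM against 29.9 CPM. Among glucocorticoid response genes 1 of 12 was higher and 2 lower, none by more than 0.48 on the log2 scale.

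Secreted Wnt modulators were mixed, with 6 of 12 tested genes higher and 2 lower (median log2 fold change 0.68). Sfrp1, a Wnt antagonist, averaged 218 ± 55.9 CPM against 86.1 ± 32.6 CPM (SD, n = 7 each; higher in 7 of 7 libraries). Wisp2, a matricellular Wnt target, averaged 1.42 CPM against 29.0 CPM and had no count in 4 of the 7 libraries of members. Within the insulin-like growth factor axis 5 of 11 tested genes were higher and 3 lower. Igfbp2 averaged 140 ± 160 CPM against 19.3 ± 17.8 CPM (SD, n = 7 each) and was higher in 6 of 7 libraries. Members read 0, 12.8 and 105 CPM in the old libraries and 446, 178, 19.3 and 221 CPM in the young ones, a wide spread, and the call held in 15 of 15 alternatives. Chrdl1, a BMP antagonist, had counts in members of young replicate 1 alone (1.79 CPM there) and averaged 15.9 CPM in Crabp1-low cells.

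Cdkn1c, an imprinted cell cycle inhibitor, averaged 784 ± 380 CPM in Crabp1 progenitors against 290 ± 190 CPM in Crabp1-low cells (SD, n = 7 each; log2 fold change 1.58, edgeR adjusted p = 1.32e-06). Cdkn2b averaged 31.1 CPM against 10.5 CPM, and Cdkn2a, which encodes p16 and p19Arf, averaged 12.8 ± 18.2 CPM against 2.57 ± 2.95 CPM. Members of old replicate 3 carried most Cdkn2a at 52.4 CPM, with 1.79 to 16.8 CPM in the other 6 libraries. None of 13 tested proliferation genes passed in either direction.

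Marks of the other progenitor types did not all move one way. Interstitial progenitor marks were lower for 8 of 9 tested genes and higher for 1, Wnt2, with a median log2 fold change of -1.41. Committed preadipocyte marks were lower for 6 of 8 genes and higher for none (median -0.99). Matrix-producing progenitor marks were higher for 3 of 8 genes and lower for 3 (median 0.30), and regulatory progenitor marks higher for 1 of 8 and lower for 3 (median -0.36). Of 17 adipogenic regulators and lipid genes 7 were lower and 1 higher. Lpl, which releases fatty acids from lipoproteins, averaged 871 ± 281 CPM against 1893 ± 684 CPM, and Fabp4, a fatty acid carrier, 438 ± 310 CPM against 1117 ± 466 CPM (SD, n = 7 each), both lower in all 7 libraries. Pparg, the master regulator of adipocyte formation, was lower by edgeR too (log2 fold change -0.98). Chemokines and cytokines were lower for 11 of 16 genes and higher for 1, and complement genes lower for 7 of 10 and higher for 1. Cxcl13, the B cell attractant, had a count in 1 library of members, at 0.70 CPM, and averaged 14.7 CPM in Crabp1-low cells. Of the marks of dermal and hair follicle fibroblasts, 4 of 6 tested genes were higher and none lower: the transcription factor genes Alx4, Tbx18 and Trps1, and Lrig1, an inhibitor of growth factor receptors. With single libraries left out, 2 to 4 were higher, and the call of Trps1 was lost in 8 of 15 alternatives. Fibrillar collagen and matrix genes were split, 7 of 30 higher and 7 lower. Postn and Cthrc1, matrix proteins of remodelling tissue, averaged 6704 and 157 CPM against 4327 and 76.8 CPM, while Col6a3, a chain of type VI collagen, averaged 673 CPM against 1491 CPM.

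Markers of other cell types were summed in members. Tendon and ligament marks reached 5.65 to 89.6 CPM in old and 37.8 to 90.4 CPM in young members, with Comp at 0. Their mean sum was 19.5 CPM in Crabp1-low, 2.09 CPM in immune, 3.34 CPM in endothelial and 29.3 CPM in epithelial cells. Their most abundant gene Kera, a corneal and tendon proteoglycan, was higher in the Crabp1 gate (log2 fold change 1.54, edgeR adjusted p = 0.00141). It was the 1 gene of 3 tested in this list to pass. Mesothelial Msln, Lrrn4, Wt1 and Upk1b had no UMI in members of any library. Summed myeloid marks read 262 to 644 CPM in old and 86.5 to 145 CPM in young members, against a mean of 24300 CPM in immune cells and 329 CPM in Crabp1-low cells. Pericyte and smooth muscle marks summed to 15.5 to 65.2 CPM in old and 79.3 to 298 CPM in young members, with a mean of 331 CPM in Crabp1-low cells, and 7 of 8 were lower in the Crabp1 gate. Dermal and hair follicle marks summed to 163 to 228 CPM in old and 161 to 358 CPM in young members, with Sox2 and Dkk1 at 0. Their mean sum was 171 CPM in Crabp1-low, 169 CPM in immune, 414 CPM in endothelial and 574 CPM in epithelial cells. The part of these marks in the results was not tested.

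The second comparison asked what differed with age inside the gate. In sums over the members of each library, 32 genes rose and 47 fell in old libraries among 6599 tested, which is 1.2% called (0.485% rose and 0.712% fell; edgeR, adjusted p below 0.05; 875 genes had an unadjusted p under 0.05). The count was 17, 23 and 13 without old replicates 1, 2 and 3, and 171, 54, 33 and 65 without young replicates 1, 2, 3 and 4. When cells were thinned to 5000 UMIs before gating, which leaves young replicate 2 with under 20 members and out of the fit, 5 genes rose and 11 fell. Full counts of the cells in this gate were summed, and cells that lost their Pi16, F3 or Ptprc UMIs in thinning could enter it. Crabp1-low cells became more numerous in every library, from 497 to 503 in old replicate 3 and from 285 to 489 in young replicate 3. With at least 3 Crabp1 UMIs required, which leaves out young replicates 2 and 3, 1 gene rose and 6 fell.

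Of 30 tested genes of fibrillar collagen and matrix, 8 fell in old members and none rose, and 24 of 30 had a negative log2 fold change (median -1.07, against 0.00643 over all genes). With single libraries left out, 4 to 12 fell and none rose. Col1a1, the main chain of type I collagen, read 1459, 1371 and 2051 CPM in old and 7193, 9518, 21650 and 7463 CPM in young members. The groups do not overlap, as in all 79 called genes and in 13.7% of genes tested. Young replicate 3 is far above the other 6 libraries. The log2 fold change was -2.82 (SE 0.39, edgeR adjusted p = 0.00616), and -2.31 at the smallest over 15 alternatives; the call was lost without old replicate 1. Col1a2, its partner chain, read 3056, 3046 and 2805 CPM in old and 9517, 14380, 24810 and 13080 CPM in young members (log2 fold change -2.38, SE 0.30, edgeR adjusted p = 0.00343). Col3a1, the chain of type III collagen, read 3610, 4351 and 2974 CPM in old and 15930, 20720, 33220 and 13230 CPM in young members (log2 fold change -2.51, edgeR adjusted p = 0.00343). Postn, periostin, read 2920, 2861 and 2208 CPM in old and 8942, 12280, 9034 and 10780 CPM in young members (log2 fold change -1.95, edgeR adjusted p = 0.00274). Col1a2, Col3a1 and Postn were the 3 genes that passed in all 15 alternatives.

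Cthrc1, a secreted protein of collagen-making fibroblasts, read 33.1, 32.7 and 66.2 CPM in old and 243, 296, 238 and 243 CPM in young members, so even the highest old library is below all 4 young ones (edgeR adjusted p = 0.00343, log2 fold change -2.50). With the gate applied after thinning, its log2 fold change was -2.25 and it no longer passed (edgeR adjusted p = 0.112). The other 3 of the 8 matrix genes that fell were Sparc, Col14a1 and Col5a2, with log2 fold changes of -2.34, -1.83 and -1.56. Basement membrane genes and matrix proteases had 0 of 13 genes each passing, while Col18a1, Nid1, Mmp2 and Adamts2 had log2 fold changes of -1.11, -1.01, -1.13 and -1.35 with edgeR adjusted p of 0.0577 to 0.0773.

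The promoters of the 3 genes that passed in every alternative were looked up in RefSeq (GRCm38.p6, 250 bases before to 50 after an annotated start, plus strand), because these genes moved together. The 2 collagen promoters are shown with each CCAAT box, the binding motif of NF-Y, in capitals on either strand (CCAAT or ATTGG). That motif is present in 37.4% of the 32851 promoters of the same length in the table. Col1a2 lies at chr6:4505368-4505667 and Col3a1 at chr1:45311288-45311587.
Col1a2: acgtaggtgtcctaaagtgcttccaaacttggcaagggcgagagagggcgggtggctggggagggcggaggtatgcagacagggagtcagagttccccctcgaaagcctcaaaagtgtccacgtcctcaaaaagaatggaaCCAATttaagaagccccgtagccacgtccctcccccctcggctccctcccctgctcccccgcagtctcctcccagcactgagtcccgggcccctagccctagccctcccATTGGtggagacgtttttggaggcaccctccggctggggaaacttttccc
Col3a1: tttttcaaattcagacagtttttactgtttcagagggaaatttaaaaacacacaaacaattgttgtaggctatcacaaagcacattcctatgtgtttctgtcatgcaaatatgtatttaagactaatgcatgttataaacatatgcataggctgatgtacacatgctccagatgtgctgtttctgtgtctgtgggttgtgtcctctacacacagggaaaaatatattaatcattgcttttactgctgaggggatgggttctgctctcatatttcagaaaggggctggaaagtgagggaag
The Col1a2 window holds 2 matches, one on each strand, and the Col3a1 window holds 0. Of the 2 windows of Postn, one holds 1 match and the other none. The 3 genes that fell together thus do not share this motif in these windows, which says nothing of the factor.

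Of 8 marks of matrix-producing progenitors, 6 fell and none rose (3 to 8 fell with single libraries left out). Of 13 tested imprinted growth genes 3 fell, none rose and 4 had a positive log2 fold change (0 to 4 fell with single libraries left out). H19 and Mest are in both lists. These decreases were not particular to members. In Crabp1-low cells 7 of the 8 marks fell with age and none rose. Of 16 imprinted growth genes tested there 6 fell, with H19, Mest and Cdkn1c among them, and none rose. H19, a maternally expressed long RNA that is imprinted and abundant in the fetus, read 0, 2.73 and 0 CPM in old and 25.9, 47.8, 343 and 60.2 CPM in young members, with young replicate 3 far above the rest (log2 fold change -7.20, SE 1.47, edgeR adjusted p = 0.0385). Without any one old library its call was lost, and the fitted fold change depends on counts near 0. Mest, an imprinted gene expressed in growing mesenchyme, read 5.84, 13.6 and 1.74 CPM in old and 17.9, 92.6, 123 and 50.7 CPM in young members (log2 fold change -3.45, edgeR adjusted p = 0.0459). Cdkn1c read 442, 507 and 467 CPM in old and 925, 1503, 1109 and 798 CPM in young members (log2 fold change -1.20, edgeR adjusted p = 0.0459), so this gene, high in the gate, was lower at the later age. The call of Mest was lost in 7 of its 12 alternatives and that of Cdkn1c in 10 of 15, each without any one old library. Aspn, a small matrix proteoglycan, averaged 3.04 ± 2.72 CPM (SD, n = 3) in old and 75.5 ± 36.9 CPM (SD, n = 4) in young members. Cpz, a secreted carboxypeptidase, averaged 7.25 ± 2.79 CPM in old and 69.9 ± 23.4 CPM in young members, and Serpina3g, a protease inhibitor gene, 1.88 ± 1.95 CPM and 45.4 ± 15.4 CPM. Serpina3g belongs to a cluster of similar genes among which reads can be split. Tnfrsf21, Igdcc4, Hs3st6 and Arl4c were the other large decreases, with log2 fold changes of -2.74, -3.98, -3.41 and -3.21. Npr1, the receptor of atrial natriuretic peptide that makes cGMP, averaged 29.9 CPM in old and 82.8 CPM in young members (log2 fold change -1.46, edgeR adjusted p = 0.0459). It was the 1 gene of 5 in its list to pass, and its call was lost in 10 of 15 alternatives.

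Cxcl14 had the largest increase by the naming rule. It was the 1 gene to pass among 8 committed preadipocyte marks, of which 5 had a positive and 3 a negative log2 fold change (median 0.0862). It was also the 1 gene to pass among 12 tested chemokines and cytokines. Cxcl14, a chemokine gene of committed preadipocytes, read 562, 256 and 1220 CPM in old members. In young members it read 71.6, 0, 57.3 and 41.2 CPM. The lowest old library exceeded the highest young one, a difference of 3.94 ± 0.66 (SE) on the log2 scale (edgeR adjusted p = 0.0165), although the call was lost without old replicate 1, old replicate 3 or young replicate 3. Smoc2, which marks the same committed cells, did not follow: it read 93.4, 35.4 and 103 CPM in old and 197, 65.7, 44.5 and 68.6 CPM in young members (log2 fold change -0.22, edgeR adjusted p = 0.905).

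Cdkn1a, the gene of p21, a brake on the cell cycle, read 309, 275 and 810 CPM in old and 43.8, 89.6, 38.6 and 43.3 CPM in young members. The groups do not overlap, as in every called gene, and the log2 fold change was 3.18 with an SE of 0.42 (edgeR adjusted p = 0.00475). The gene passed without each library in turn. With the gate applied after thinning its log2 fold change was 4.07 but it no longer passed (edgeR adjusted p = 0.0895). Cdkn2a was below the filter in this test, at 17.0, 2.72 and 49.6 CPM in old and 2.06, 5.56, 4.41 and 5.64 CPM in young members, unscaled, and the groups overlap. Immediate early genes, which respond to dissociation of tissue, were also high in old members: Fos read 7557, 7861 and 10350 CPM, against 1172, 5927, 4254 and 3572 CPM in young members. None of 18 such genes passed and 15 had a positive log2 fold change. Their part in the result was not tested.

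Of 8 tested complement genes 2 rose in old members and none fell. C4b read 197, 136 and 192 CPM in old and 25.9, 32.9, 14.0 and 32.7 CPM in young members (log2 fold change 2.73, SE 0.30, edgeR adjusted p = 0.00274), and passed without each library in turn. C3 read 218, 117 and 66.2 CPM in old and 19.9, 32.9, 22.2 and 35.5 CPM in young members (log2 fold change 2.23, edgeR adjusted p = 0.0177). With the gate applied after thinning, the log2 fold change of C3 was 0.34 (edgeR adjusted p = 0.911), where that of C4b was 2.49 and still passed. Of 15 tested genes of MHC class I and the interferon response 3 rose, none fell and 14 had a positive log2 fold change (median 0.42), and 0 to 5 rose with single libraries left out. The calls of H2-D1, Isg15 and H2-K1 were lost in 11, 9 and 4 of 15 alternatives. H2-K1, a classical MHC class I heavy chain, read 675, 741 and 1084 CPM in old and 346, 236, 219 and 287 CPM in young members (log2 fold change 1.62, SE 0.25, edgeR adjusted p = 0.014). H2-D1, the second such chain, read 1132, 1063 and 1906 CPM in old and 684, 535, 294 and 512 CPM in young members (log2 fold change 1.44, edgeR adjusted p = 0.0459). Isg15, an interferon-induced modifier of proteins, rose as well (log2 fold change 2.46, edgeR adjusted p = 0.0357), but its 108 CPM in old replicate 3 stood against 27.2 and 30.0 CPM in the other old libraries. H2-K1 and H2-D1 are near-identical to other MHC class I genes, among which reads can be split.

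Genes of macrophages were among those called. C1qa read 33.1, 49.1 and 54.0 CPM in old and 3.98, 2.99, 14.0 and 9.85 CPM in young members (log2 fold change 2.30, edgeR adjusted p = 0.0186), and its level was 86-fold higher in the immune gate. In all, 9 of the 79 called genes were more than 10-fold higher in immune, endothelial or epithelial cells, and 8 of the 9 were among the genes that rose. The share of all tested genes above this ratio was not taken, so the count is not read as an excess. With the gate applied after thinning, the log2 fold changes of C1qa and Lyz2 were 0.33 and 0.32. That gate could also admit cells whose Ptprc UMIs were lost in thinning, so these values do not separate depth from a change of cells. The myeloid sums given above were higher in every old library than in every young one, and their part in the increases of complement and MHC genes was not tested.

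The remaining large increases were Lin7a, Cilp, Gas6, Nabp1 and Fxyd5. Lin7a, a scaffold protein of cell junctions, read 60.3, 27.3 and 55.8 CPM in old and 3.98, 2.99, 7.02 and 4.57 CPM in young members. Fxyd5, a regulator of the sodium pump, read 154, 101 and 129 CPM in old and 39.8, 35.9, 26.9 and 28.8 CPM in young members, the tightest separation of the 5. Both passed with each library left out in turn (edgeR adjusted p = 0.00343 for each with all 7 libraries), and neither passed with at least 3 Crabp1 UMIs required. Gas6, a ligand of the receptors that clear dying cells, read 91.4, 114 and 197 CPM in old and 47.7, 8.96, 16.4 and 19.7 CPM in young members. Cilp, a matrix protein first found in cartilage, averaged 100.1 ± 58.8 CPM (SD, n = 3) in old and 12.0 ± 10.8 CPM (SD, n = 4) in young members. Wnt11, a Wnt ligand, averaged 59.8 ± 8.20 CPM in old and 17.1 ± 4.67 CPM in young members, the 1 gene of 7 Wnt modulators to pass. The calls of Gas6 and Cilp were lost in 5 of 15 alternatives each, that of Wnt11 in 6 of 15 and that of Nabp1 in 7 of 14.

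**Figure D3:**
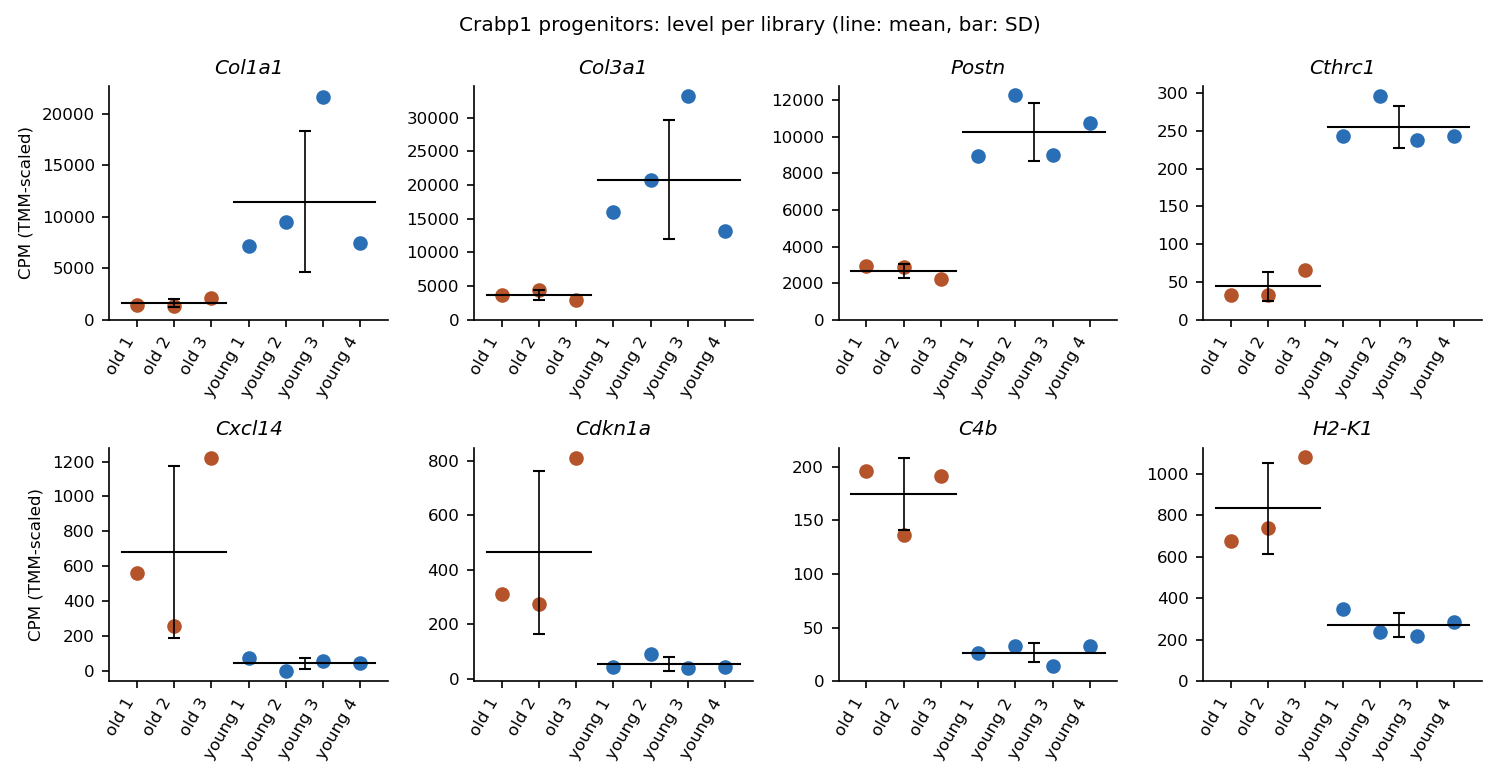
TMM-scaled CPM per library in Crabp1 progenitors for 4 genes that fell (top) and 4 that rose (bottom) with age, with the mean as a line and the SD as a bar (old orange, n = 3; young blue, n = 4). Old and young libraries do not overlap for any of the 8 genes, as for all 79 called genes and for 13.7% of genes tested. Young replicate 3 is highest for Col1a1 and Col3a1.

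The genes that name the cells did not pass between ages. Among 12 tested retinoid genes none passed and 6 had a positive and 6 a negative log2 fold change. Stra6 averaged 83.8 ± 25.1 CPM in old and 85.6 ± 26.7 CPM in young members, and Hsd11b1 averaged 494 ± 88.8 CPM and 590 ± 322 CPM (SD, n = 3 old and 4 young). Nos1 averaged 55.9 ± 18.3 CPM in old and 90.7 ± 43.1 CPM in young members, with overlap. Penk read 737, 700 and 1207 CPM in old and 601, 242, 363 and 412 CPM in young members, without overlap, but the difference of 1.12 on the log2 scale did not pass (edgeR adjusted p = 0.114). Non-overlap itself was common, in 13.7% of tested genes. Nr3c1, the glucocorticoid receptor, averaged 139 CPM in old and 170 CPM in young members, and 0 of 11 glucocorticoid response genes passed. The adipogenic list had 0 of 15 passing; Pparg averaged 29.0 ± 10.5 CPM in old and 17.4 ± 2.34 CPM in young members (edgeR adjusted p = 0.444). With 3 and 4 libraries these intervals are wide, and a missed threshold does not show that levels were equal.

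Because old cells were shallower, the share of members with at least 1 UMI of a gene was also taken after thinning to 5000 UMIs. Shallower members were left out of these shares. Membership was still set on the full counts, so the gate itself was not matched for depth. Young replicate 4 had 195 members here, against 118 with the gate applied after thinning, and old replicate 1 had 58 against 55. Cxcl14 was detected in 74.1%, 55.9% and 83.1% of old and 17.1%, 0%, 13.3% and 12.8% of young members, against 2.22% to 5.87% of old and 1.03% to 10.0% of young immune cells at the same depth. The value of 0 in young replicate 2 is 0 of 22 cells. Cdkn1a was detected in 62.1%, 50% and 73.2% of old and 8.57%, 22.7%, 10.0% and 16.4% of young members; immune cells use this gene too, with 11.0% to 69.3% over the 7 libraries. Cthrc1 was detected in 10.3%, 11.8% and 22.5% of old and 57.1%, 50%, 63.3% and 53.3% of young members, and Lrrc15, a membrane protein of matrix-producing fibroblasts, in 2.94% to 12.1% and 25.7% to 60%. Icam1, an adhesion molecule of committed preadipocytes, was detected in 26.5% to 34.5% of old and 0% to 20% of young members. Its share in immune cells was 34.6% to 38.4% in old and 17.0% to 34.9% in young libraries. The thinned Cdkn1a shares of members overlap those of immune cells at both ages. The part of RNA from immune cells in the shares of either gene was not tested. For each of these 5 genes old and young libraries did not overlap and the 2-sided exact permutation p was 0.0286, the smallest possible over 35 splits. After Benjamini-Hochberg adjustment over the 19 genes this was 0.109, so 0% of the list passed, while 42.1% of it did not overlap. Crabp1-low cells at the same depth also separated the ages without overlap for these 5 genes. Their mean shares in old and young libraries were 67.2% and 22.6% for Cxcl14, and 68.05% and 19.9% for Cdkn1a. Mean shares were 5.07% and 32.3% for Cthrc1, 4.565% and 30.7% for Lrrc15, and 49.7% and 26.3% for Icam1. Penk was detected in 85.3% to 91.5% of old and 50% to 82.9% of young members (exact permutation p = 0.0571). Hsd11b1 was detected in 67.7% to 88.7% of old and 40.0% to 91.4% of young members, and Mki67, a gene of dividing cells, in 0% of old and up to 3.33% of young members.

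**Figure D4:**
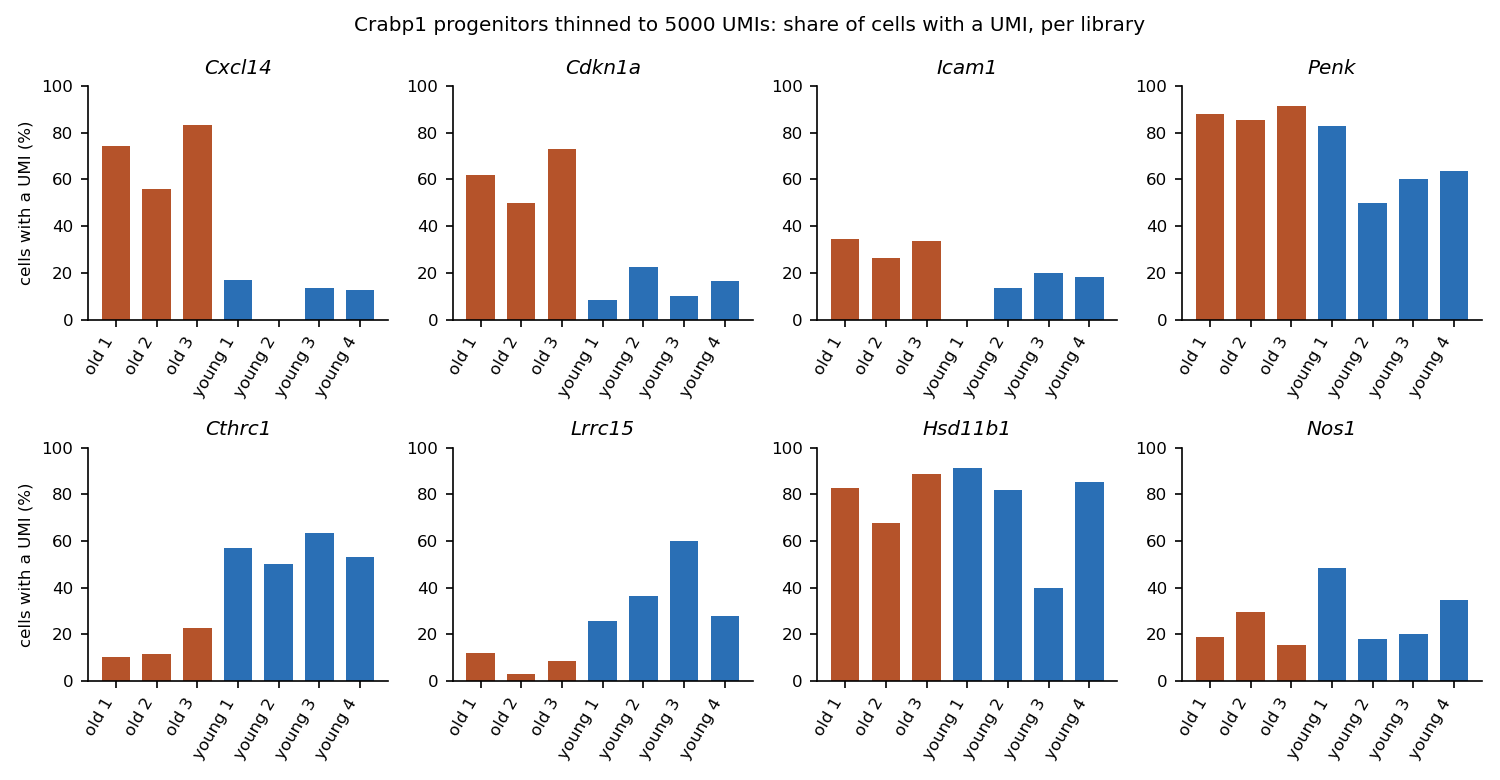
Share of Crabp1 progenitors with at least 1 UMI of a gene after thinning to 5000 UMIs, shallower cells left out, per library (old orange, young blue). Cxcl14 bars lie at 55.9% to 83.1% in old and at most 17.1% in young libraries, and Cthrc1 bars at 22.5% or lower in old and at 50% or higher in young libraries.

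The third comparison asked which age differences were unlike those of the Crabp1-low cells in the same libraries. The class-by-age term of edgeR passed for 95 of 11712 genes (0.811%), with 63 positive (0.538%, old minus young higher in Crabp1 progenitors) and 32 negative (0.273%). The count lay between 43 and 155 with single libraries left out. In Crabp1-low cells alone, 132 genes (1.08%) rose and 323 (2.65%) fell with age among 12170 tested (3.74%). Of the 79 genes called with age in Crabp1 progenitors, 48 also passed in Crabp1-low cells in the same direction. The class-by-age term passed for 12 of the 79. It passed for 0 of 8 matrix-producing progenitor marks and for 1 of 14 imprinted growth genes, Meg3. Both gates come from the same libraries, so their own age values are set side by side.

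Col1a1, Col1a2 and Col3a1 fell more in Crabp1 progenitors than in Crabp1-low cells. Of 30 matrix genes 12 passed with a negative term and 2 with a positive one; counting all terms, 16 were negative and 14 positive (median -0.15). Col1a1 averaged 1538 CPM in old and 11010 CPM in young Crabp1 progenitors, and 2874 CPM in old and 9746 CPM in young Crabp1-low cells (term -1.03, SE 0.12, edgeR adjusted p = 5.75e-05). Col3a1 averaged 3447 CPM in old and 19920 CPM in young Crabp1 progenitors, and 10110 CPM in old and 23480 CPM in young Crabp1-low cells (term -1.30, edgeR adjusted p = 5.75e-05). Col1a2 had a term of -0.84. All 3 passed in all 10 alternatives run for this term. Postn and Cthrc1 did not follow them: their log2 fold changes with age were -1.95 and -2.50 in Crabp1 progenitors and -2.57 and -3.23 in Crabp1-low cells, with terms of 0.56 and 0.71 that did not pass (edgeR adjusted p = 0.0904 and 0.467). Of 14 basement membrane genes 5 passed with a negative term and none with a positive one, among them Nid1, nidogen, at -0.76. Smoc2 had one of the 3 largest negative terms: it averaged 73.1 CPM in old and 88.0 CPM in young Crabp1 progenitors, against 494 CPM in old and 122 CPM in young Crabp1-low cells (term -2.10, edgeR adjusted p = 0.000519).

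Penk, which did not pass between ages in the gate, had a positive term: it averaged 833 CPM in old and 384 CPM in young Crabp1 progenitors, and 196 CPM in old and 193 CPM in young Crabp1-low cells (term 1.20, SE 0.17, edgeR adjusted p = 0.000748). Penk passed in all 10 alternatives run, none of which changed the gate. Unscaled, Crabp1 itself read 501, 524 and 535 CPM in old and 445, 225, 182 and 321 CPM in young members. Penk was also higher in cells with more Crabp1 UMIs, as given above for the cut. The part of the gate in this term was not tested. Nos1 was near its threshold (term 1.62, edgeR adjusted p = 0.0494): it averaged 52.8 CPM in old and 86.0 CPM in young Crabp1 progenitors, and 4.50 CPM in old and 23.0 CPM in young Crabp1-low cells. C4b averaged 165 CPM in old and 25.3 CPM in young Crabp1 progenitors, against 337 CPM in old and 240 CPM in young Crabp1-low cells (term 1.82, edgeR adjusted p = 0.00445). Its mean level in old members was below that of Crabp1-low cells of either age. H2-K1 and H2-D1 had terms of 0.84 and 0.66, Gas6 of 1.40 and Cilp of 2.04; the calls of C4b, Gas6, Cilp and H2-K1 were lost without old replicate 3. Nos1 passed in 4 of 10 alternatives. Apoe, the apolipoprotein, averaged 1662 CPM in old and 741 CPM in young Crabp1 progenitors, against 793 CPM in old and 835 CPM in young Crabp1-low cells (term 1.17, edgeR adjusted p = 0.0141, lost without old replicate 1 or 2), and the fatty acid transporter Cd36 had a term of 1.03. The term of Cd36 was lost in 7 of 10 alternatives and that of H2-D1 in 4 of 10.

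**Figure D5:**
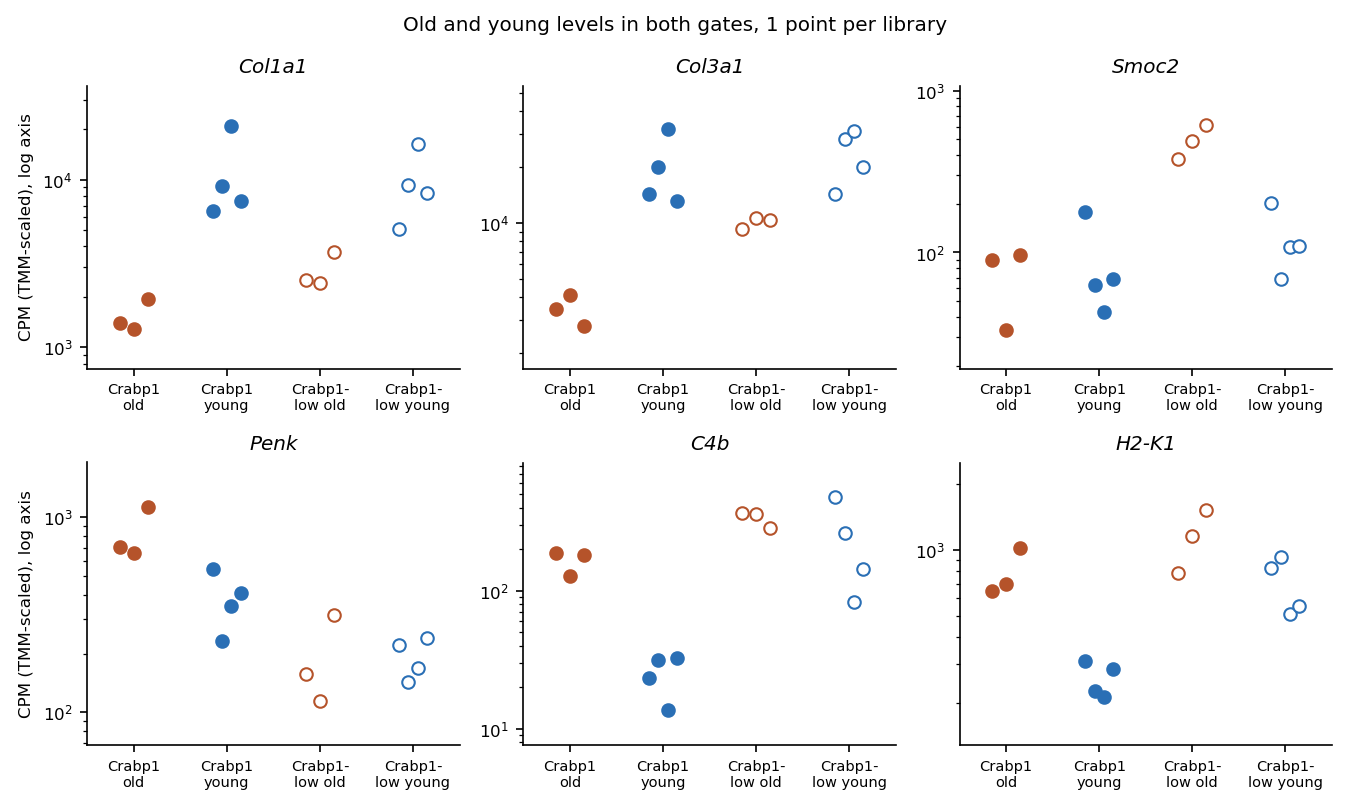
TMM-scaled CPM on a log axis, 1 point per library, for old and young Crabp1 progenitors (filled) and old and young Crabp1-low cells (open). Mean Col3a1 is 3447 CPM in old and 19920 CPM in young Crabp1 progenitors, against 10110 CPM in old and 23480 CPM in young Crabp1-low cells, while mean Penk in Crabp1-low cells is 196 CPM in old and 193 CPM in young libraries.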

How the data were processed

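The deposited files hold UMI counts per gene and barcode for 3 old and 4 young libraries. Per the submitters' processing notes, the authors used Cell Ranger 4.0.0 and the mouse build mm10 to make these counts. Barcodes were kept from 500 UMIs and 300 genes upwards and up to 15% mitochondrial UMIs, and doublets were marked with Scrublet, not removed. The members and lists were chosen with earlier results of these data known. Counts were summed per library over gates with at least 20 cells and tested with edgeR 4.0.16 (filterByExpr, TMM, glmQLFit, glmQLFTest) in R 4.3.3, and checked on simulated data. Shares were tested by exact permutation. Library totals lay between 52336665 and 99516882 UMIs. The chi-square per degree of freedom between summed members of same-age libraries was at least 1.79, so none was merged. Named genes follow a fixed rule: the 10 largest changes per direction that pass, do not overlap, reach 20 CPM (50 CPM between gates) and are not over 10-fold higher in another gate, up to 4 members per list, and a fixed set. Alternatives were RLE factors, DESeq2 1.42.0, no filter, stricter gates and cell filters, thinning, doublets out, a replicate block and each library left out. For the class-by-age term only RLE factors, DESeq2, no filter and each library left out were run.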

Additional observations from a re-analysis of the deposited data

Results flagged for a closer look

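Of 91 sets of 4 young values tested, 10 held a library far from the other 3. A chance rate of about 1 in 20 would hold for independent normal values. These sets share libraries and include shares at 0, so the count is not read as an excess. Young replicate 3 had 21650 CPM of Col1a1, against 7193 to 9518 CPM in the other young libraries, and 342.8 CPM of H19, against 25.9 to 60.2 CPM. Young replicate 2 had 89.6 CPM of Cdkn1a (38.6 to 43.8 CPM in the others), 295.8 CPM of Cthrc1 (237.5 to 243.4 CPM) and 38.8 CPM of Lyz2 (13.9 to 16.5 CPM). Young replicate 1 had 125.3 CPM of Stra6 (68.7 to 77.2 CPM) and 196.9 CPM of Smoc2 (44.5 to 68.6 CPM). In thinned members, young replicate 3 had an Igf2 UMI in 3.33% and a Mki67 UMI in 3.33%, and young replicate 2 a Crabp2 UMI in 4.55%, against 0% to 0.513% elsewhere in the young group. Thinned members numbered 30 in young replicate 3 and 22 in young replicate 2, so each of these shares is a single cell.

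The age difference was unlike that of Crabp1-low cells, by the class-by-age term of edgeR, for 20 named genes. Among matrix genes it was -1.03 for Col1a1, -1.30 for Col3a1, -0.844 for Col1a2 and -0.763 for Nid1. It was -2.10 for Smoc2 and -1.73 for Atp9a, and 1.20 for Penk, 1.62 for Nos1 and 1.32 for Alx4. It was 1.82 for C4b, 0.837 for H2-K1, 0.656 for H2-D1, 1.40 for Gas6, 2.04 for Cilp, 1.17 for Apoe and 1.03 for Cd36. Cxcl5 had a term of 11.5, which rested on members of old replicate 3 alone. Hist1h2ap had a term of -5.88, resting on members of young replicates 3 and 4. Rgs5 and Tinagl1, with terms of 3.37 and 3.57, were highest in the Crabp1-low cells of young replicate 1.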

How the results depend on the processing

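With 23 to 197 members a library, and 3 old libraries, the age and class-by-age counts depend on single libraries, and small differences cannot be seen. Against 79 genes called with age, no expression filter gave 378, DESeq2 171, at least 3 Crabp1 UMIs 7, gating after thinning 16, stricter cell filters 48, and single libraries left out 13 to 171. The gate comparison called 1568 genes, and 1017 with at least 3 Crabp1 UMIs. The class-by-age term called 95 genes, 235 with no filter and 43 to 155 with single libraries left out. The cause was not tested, except that fewer libraries entered where the gate left under 20 cells. The share difference was -0.306 in log2 odds over all kept cells and -0.255 to 0.797 with single libraries left out. The replicate block called 53 genes with age and gave a share difference of 0.797 (exact permutation p = 0.5); same-numbered libraries correlated at -0.00583, 0.0812 and 0.0149, so the numbers were not taken as pairs. Among differences that did not pass, these turned sign. Share differences without thinning were -14.3 points for Stra6, -0.0527 for Pparg and -1.02 for Crabp2. At 3000 UMIs they were -6.92 for Stra6, 2.54 for Smoc2 and 0.855 for Mki67. With single libraries left out they spanned -1.26 to 5.4 for Stra6, -0.274 to 1.51 for Crabp2 and -6.41 to 11.2 for Hsd11b1. Log2 fold changes turned to 0.23 for Smoc2 and -0.48 for Igfbp5 with gating after thinning, 0.13 for Gdf10 with at least 3 Crabp1 UMIs, 0.011 for Stra6 without doublets and 0.24 for Hsd11b1 with the block, and spanned -0.218 to 0.209 for Stra6 and -0.468 to 0.39 for Smoc2 with single libraries left out. Of the named results' alternative values, 807 with age kept their direction and side of the threshold, 141 no longer passed, 39 newly passed and 9 changed sign. Between gates 1511 were kept and 94 no longer passed, and for the class-by-age term 157 and 39.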
